A study of Homo sapiens with 12 samples.

Results

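Ribosome biogenesis factors are the proteins that make ribosomes without being part of the finished particle. Here 45 such genes were followed by name in ES-2 cells, of which 44 had a row in the table of 57773 features (spike-ins left out) and 43 were among the 13782 genes with enough reads to test. GAR1 was too low to test, and BOP1 was not analysed here. ES-2 cells are an established line grown out of a human ovarian tumour. They received a pool of siRNAs to IGF2BP1 (group siI1), to IGF2BP2 (group siI2) or to IGF2BP3 (group siI3), or control siRNA (group siC), with 3 libraries in each of the 4 groups. No other treatment or allele is named in the labels, and the time from transfection to harvest was not stated. The targeted proteins bind mRNAs and influence their stability and translation. The design asks which RNA levels differ once each of them is depleted.

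In the nucleolus, RNA polymerase I transcribes a long precursor rRNA. Small nucleolar RNAs in box C/D and box H/ACA particles guide the methylation and pseudouridylation of that precursor, the small subunit processome folds and cuts its leading part, and a separate set of factors assembles the large subunit on the rest. Cancer cells usually produce these factors at a high level, and the transcription factor MYC is a well known activator of their genes.

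The promoters of 5 members are shown because on the deposited scale FCF1 and RSL24D1 were lower in all 3 knockdowns, DDX21 in siI1 and siI3, and GNL3 in siI3, while FBL did not pass in any. Each window runs from 250 bases before to 50 bases after the annotated start, 5′ to 3′ on the gene's own strand, from RefSeq on the GRCh38.p14 build. Capitals mark the E-box CACGTG and the ETS core CCGGAAG, each searched on both strands, so that the ETS core may read CTTCCGG. The letters of an E-box and an ETS core cannot overlap each other. FCF1 lies at chr14:74712894-74713193 (+), RSL24D1 at chr15:55196892-55197191 (-), DDX21 at chr10:68956397-68956696 (+), GNL3 at chr3:52685782-52686081 (+) and FBL at chr19:39846330-39846629 (-). For DDX21 and GNL3, which each have 2 listed starts, the window that holds an E-box is printed.
FCF1: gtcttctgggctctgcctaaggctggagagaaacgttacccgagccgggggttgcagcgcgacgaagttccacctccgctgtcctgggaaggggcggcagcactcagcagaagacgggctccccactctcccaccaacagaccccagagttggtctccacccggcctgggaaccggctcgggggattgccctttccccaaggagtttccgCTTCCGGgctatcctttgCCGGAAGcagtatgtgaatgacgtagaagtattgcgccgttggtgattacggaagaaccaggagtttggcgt
RSL24D1: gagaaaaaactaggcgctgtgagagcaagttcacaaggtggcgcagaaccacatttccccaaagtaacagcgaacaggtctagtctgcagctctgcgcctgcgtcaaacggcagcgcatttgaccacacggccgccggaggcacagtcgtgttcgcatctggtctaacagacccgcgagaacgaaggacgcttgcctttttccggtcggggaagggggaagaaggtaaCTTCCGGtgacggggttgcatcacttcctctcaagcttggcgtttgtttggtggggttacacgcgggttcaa
DDX21: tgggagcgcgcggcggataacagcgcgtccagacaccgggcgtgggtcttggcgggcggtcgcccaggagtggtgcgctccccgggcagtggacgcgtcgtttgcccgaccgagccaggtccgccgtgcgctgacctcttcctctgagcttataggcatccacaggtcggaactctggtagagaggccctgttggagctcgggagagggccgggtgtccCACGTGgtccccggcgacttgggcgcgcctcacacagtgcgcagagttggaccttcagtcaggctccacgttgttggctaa
GNL3: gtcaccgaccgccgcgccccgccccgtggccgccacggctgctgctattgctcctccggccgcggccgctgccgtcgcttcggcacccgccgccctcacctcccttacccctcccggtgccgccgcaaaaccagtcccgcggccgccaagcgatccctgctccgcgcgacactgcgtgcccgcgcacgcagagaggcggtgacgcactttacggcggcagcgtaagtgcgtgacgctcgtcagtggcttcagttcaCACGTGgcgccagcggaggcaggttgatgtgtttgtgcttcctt
FBL: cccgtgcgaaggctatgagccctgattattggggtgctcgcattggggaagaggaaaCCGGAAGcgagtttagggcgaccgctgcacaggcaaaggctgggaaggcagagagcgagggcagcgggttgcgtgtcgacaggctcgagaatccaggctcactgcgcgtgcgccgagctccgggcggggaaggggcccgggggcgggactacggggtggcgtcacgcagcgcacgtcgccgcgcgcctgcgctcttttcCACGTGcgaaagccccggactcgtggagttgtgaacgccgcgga

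Promoter windows were found for 39 members (45 windows). The E-box was present in 20 of these windows (44.4%), against 7.26% of all 35116 windows listed and 9.46% of the windows of tested genes. The ETS core was present in 15 of the 45 windows (33.3%), against 10.3% of all windows and 16.6% of those of tested genes. In the windows printed, FCF1 and RSL24D1 hold the ETS core and no E-box, DDX21 and GNL3 hold the E-box and no ETS core, and FBL holds both. The windows of DDX21 and GNL3 were picked for their E-box, so its presence there was fixed in advance. Among tested members with a promoter, the E-box was found in 5 of the 14 that were called in any knockdown (35.7%) and in 13 of the 24 called in none (54.2%), and the ETS core in 4 of 14 (28.6%) and 9 of 24 (37.5%). A match describes the letters of the window only.

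Levels are in FPM as deposited, a fragment unit that carries a scaling factor beyond depth, since the values of a library sum to 800026 to 1219060; libraries held 3299360 to 11304060 reads. IGF2BP1 was 10.7 to 11.7 FPM in siI1, 53.8 to 58.6 FPM in siI2, 35.3 to 42.5 FPM in siI3 and 40.7 to 49.1 FPM in siC, and IGF2BP2 was 84.1 to 97.1, 9.37 to 19.2, 94.0 to 117 and 74.8 to 83.9 FPM in the same order. IGF2BP3 was 13.3 to 17.4 FPM in siI1, 11.1 to 18.2 FPM in siI2, 2.54 to 5.89 FPM in siI3 and 19.5 to 29.4 FPM in siC. Each gene was thus lowest in its own knockdown, but IGF2BP3 also lay below all siC libraries in siI1 and siI2, IGF2BP1 above them in siI2, and IGF2BP2 above them in siI1 and siI3. Vimentin had 333 to 722 FPM in siI1, 157 to 519 FPM in siI2, 246 to 515 FPM in siI3 and 850.0 to 998 FPM in siC, and KRT8 had 131 to 162, 65.7 to 83.9, 38.3 to 59.5 and 36.5 to 52.7 FPM. KRT18 (103 to 371 FPM) and KRT7 (347 to 938 FPM) were present in every library, with KRT18 in siI1, at 271 to 371 FPM, above all siC libraries, at 115 to 213 FPM. The part of these shifts in the members' values was not tested. In addition, the ovarian carcinoma markers PAX8, EPCAM and WT1 reached at most 2.91 FPM and the blood cell markers CD3E and CD68 at most 0.242 FPM in any library. The labels do not say if a group's 3 libraries stem from different cultures. The p-values then cover only the spread among these samples, which may be technical. The control libraries differed among themselves. Against the siC mean, the median of the 19 members with under 45% GC was 0.38 in siC replicate 1, -0.48 in replicate 2 and 0.14 in replicate 3 (log2 scale), and it lay between -1.33 and -0.45 in the 9 knockdown libraries. The median of the 17 members with 50% GC or more was -0.04, 0.20 and -0.12 in these siC libraries and between -0.12 and 0.31 in the knockdown libraries. For AT-rich members siC replicate 2 thus overlapped siI2 replicate 2, at -0.45, and values with and without each siC library are given below.

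Compared per kilobase of the longest annotated transcript, the siC levels of the members spanned from 1.12 FPM per kb for GAR1 to 332 FPM per kb for NOP10, a small protein of the box H/ACA particle. NPM1, the nucleolar chaperone nucleophosmin, followed at 132, then PES1 at 80.3, NHP2 at 75.1 and NOP56 at 67.0 FPM per kb. The lowest tested members were FCF1 at 2.26, UTP15 at 2.44 and UTP3 at 2.49 FPM per kb, all of the small subunit processome. In the summed level of all members with a row, the siI1 libraries reached 2511 to 2521 FPM, the siI2 libraries 2261 to 2955 FPM, the siI3 libraries 2581 to 2855 FPM and the siC libraries 3143 to 3500 FPM. As a share of a library's gene reads, which does not depend on the deposited scaling, the members took 0.245% to 0.256% in siI1, 0.2502% to 0.305% in siI2, 0.253% to 0.304% in siI3 and 0.262% to 0.397% in siC. On that measure siC replicate 2, at 0.262%, lay within the range of the siI2 and siI3 libraries, and all siI1 libraries lay below all siC libraries.

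**Figure D1:**
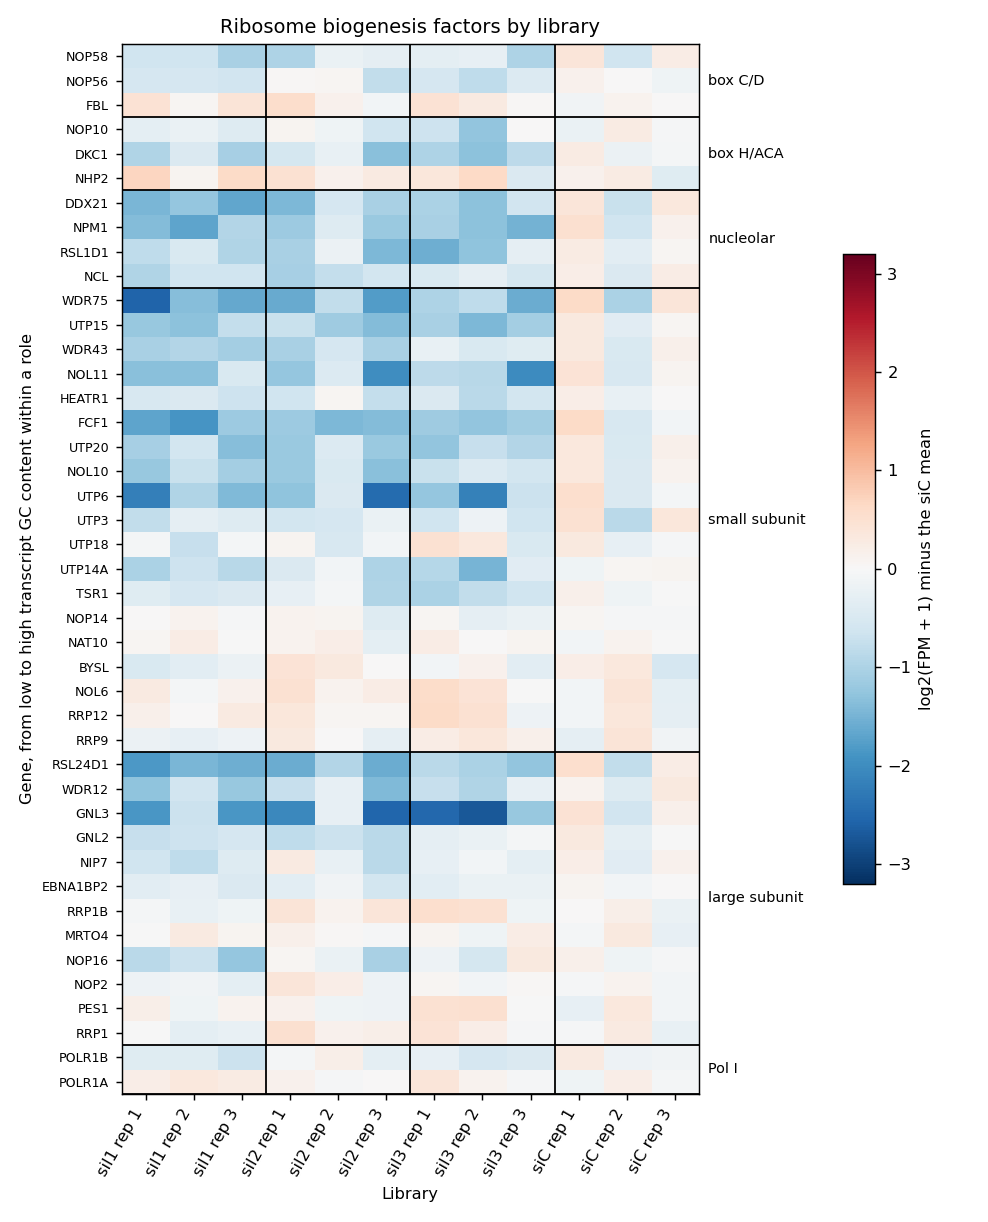
Level of the 43 tested members in each of the 12 libraries, as log2(FPM + 1) minus the mean of the 3 siC libraries. Rows are grouped by role and run from low to high transcript GC content within a role; blue is below and red above the siC mean. The AT-rich rows at the top of the nucleolar, small subunit and large subunit blocks are blue in most knockdown libraries and also pale blue in siC replicate 2.

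On the deposited scale, 11 of 43 members fell and 0 rose in siI1 against control, 2 fell and 0 rose in siI2, and 11 fell and 0 rose in siI3, whereas with libraries scaled to their spike-in reads 0, 14 and 19 members passed and all of these were higher (limma, adjusted p under 0.05 over all 13782 genes). Scaled to spike-in reads, 2.77%, 31.4% and 48.9% of all genes tested were called higher. On the deposited scale, 4.42% of all genes tested were called lower in siI1, 0.936% in siI2 and 8.29% in siI3, and 8.18%, 1.51% and 10.6% either way. Members had a median log2 fold change of -0.57, -0.43 and -0.45 in these knockdowns, beside -0.05, -0.09 and -0.05 over all genes tested. FCF1 and RSL24D1 passed in all 3 knockdowns, and DDX21, NPM1, UTP15 and UTP20 in siI1 and siI3. In all, 16 members passed in at least 1 knockdown and 27 in none. The 3 comparisons share the siC libraries, so they are not independent of each other. A lower FPM in bulk RNA may stand for less RNA per cell or for fewer cells that carry it, which cannot be told apart.

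The direction rests on the scale. Spike-ins are synthetic RNAs added to a sample, and they took 1.17% to 1.59% of the reads in siI1, 0.751% to 1.44% in siI2, 0.742% to 1.37% in siI3 and 1.71% to 2.68% in siC, so that every knockdown library had a smaller spike-in share than every siC library. The labels do not say whether spike-ins were added per cell or per amount of RNA. If libraries are scaled to them, an alternative chosen after seeing the data, the median log2 fold change of all genes moves to 0.43 in siI1, 0.80 in siI2 and 0.95 in siI3, and that of the members to -0.04, 0.60 and 0.74. Relative to all genes the members were then at -0.46, -0.20 and -0.21, and members under 45% GC had medians of -0.47, 0.07 and 0.19. On this scale 0 members were called in siI1 (limma; 8 at an unadjusted p under 0.05; 2.77% of all genes called higher and 0.152% lower). The 14 members called higher in siI2 (31.4% of all genes higher, 0.0943% lower) and the 19 in siI3 (48.9% higher, 0.747% lower) included FBL, NHP2, NOL6 and RRP1B in both. None of the members called lower on the deposited scale was called on this one, and 7 of the 11 in siI3 (DDX21, DKC1, RSL1D1, RSL24D1, TSR1, UTP14A and UTP20) were above 0. Values below are on the deposited scale unless another is named, where a lower level is relative to the other RNAs of a library and to the authors' scaling; which scale follows the amount per cell was not tested.

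The counts also rest on the control libraries. Without siC replicate 1 no member was called in siI1, siI2 or siI3 (limma; 16, 15 and 14 members at an unadjusted p under 0.05; 0.791%, 0.138% and 0.53% of all genes called lower). Without siC replicate 3 the counts were 2, 0 and 0 (0.871%, 0.0943% and 0.653% of all genes), and without siC replicate 2 they were 18, 13 and 18 (11.3%, 8.84% and 14.4% of all genes), each of them lower. Leaving out siI1 replicate 1, 2 or 3 gave 3, 10 and 4 members, leaving out siI2 replicate 1, 2 or 3 gave 0, 17 and 0, and leaving out siI3 replicate 1, 2 or 3 gave 1, 0 and 12. No called member kept its call in all 6 such fits of its comparison. Without siC replicates 1 and 3 together, where siC is 1 library whose spread is taken from the other groups, the members' median was -0.42 in siI1, -0.28 in siI2 and -0.16 in siI3, and that of all genes -0.07, -0.12 and -0.07. There 0 members were called (limma; 3, 0 and 3 at an unadjusted p under 0.05), with 0.109%, 0.00726% and 0.0943% of all genes called lower. With TMM scaling the counts were 10, 0 and 6 members lower (4.01%, 0.559% and 6.21% of all genes). On the recovered reads, edgeR called 11, 0 and 8 members lower (5.22%, 0.508% and 6.59% of all genes) and DESeq2 16, 8 and 12 (7.45%, 2.66% and 10.4%). The share of all called genes that were higher was 46.0% in siI1, 38.0% in siI2 and 21.7% in siI3 on the deposited scale, and 55.4%, 61.7% and 37.2% with TMM factors, whereas 0 members were called higher with either of these.

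Every siI1 library lay below every siC library for 26 of the 43 members, against 17.6% of all genes tested, and every siI1 library lay above for POLR1A alone, against 15.2%. In siI2 this held for 9 members below (12.3% of all genes) and 0 above (7.72%), and in siI3 for 15 below (20% of all genes) and 0 above (9.25%).

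**Figure D2:**
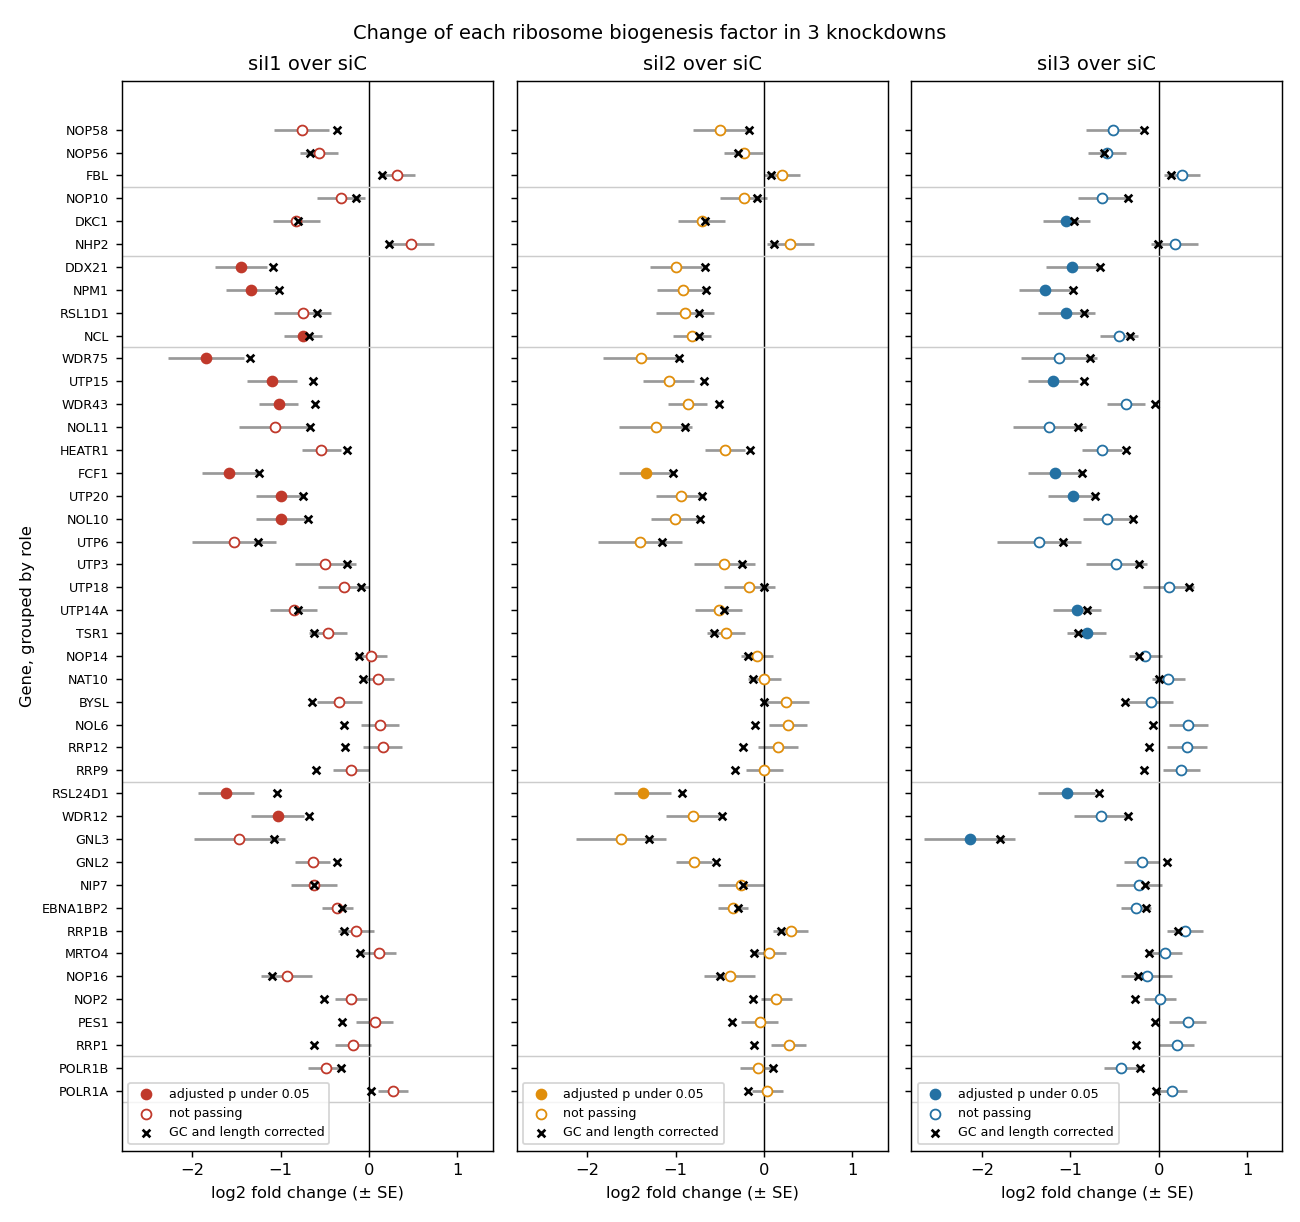
log2 fold change of each tested member in siI1, siI2 and siI3 over siC, with bars for the standard error; filled points passed an adjusted p of 0.05 and crosses are the values after correction for GC content and transcript length. On the deposited scale shown, filled points lie only left of 0, 11 in siI1, 2 in siI2 and 11 in siI3 (4.42%, 0.936% and 8.29% of all genes called lower). Scaled to spike-in reads, 0, 14 and 19 members passed, all higher (2.77%, 31.4% and 48.9% of all genes called higher). Among the crosses, those of 13 members in siI1, 0 in siI2 and 5 in siI3 passed the same threshold.

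Among the 4 multifunctional nucleolar proteins, 3 fell in siI1 (DDX21, NPM1 and NCL) and 3 in siI3 (NPM1, RSL1D1 and DDX21). In siI2 0 fell (limma, with 4 at an unadjusted p under 0.05, while edgeR called 0 and DESeq2 called NCL). Of all genes, limma called 4.42% lower in siI1, 0.936% in siI2 and 8.29% in siI3. DDX21 is an RNA helicase that acts in rRNA transcription and processing. It measured 34.2, 40.0 and 29.7 FPM in siI1, 34.9, 66.1 and 46.6 FPM in siI2, 46.9, 37.7 and 62.6 FPM in siI3 and 125, 57.8 and 122 FPM in siC. The siI1 libraries all lay below the siC libraries, while siI2 replicate 2 and siI3 replicate 3 reached above siC replicate 2. Its log2 fold change was -1.45 (SE 0.29, adjusted p = 0.00774) in siI1, -0.9961 (SE 0.29, adjusted p = 0.0871) in siI2 and -0.98 (SE 0.29, adjusted p = 0.0445) in siI3. After correction for GC content and length, explained below, DDX21 was at -1.09 (adjusted p = 0.00628) in siI1, -0.67 (adjusted p = 0.123) in siI2 and -0.67 (adjusted p = 0.0622) in siI3. The siI1 call was lost without siC replicate 1 or 3, and over the 6 fits its adjusted p was 0.000844 to 0.0629. The siI3 call was lost without siI3 replicate 1 or 2 or siC replicate 1 or 3 (0.00665 to 0.207).

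NCL (nucleolin), an abundant RNA-binding protein of the nucleolus, had 83.5, 105 and 106 FPM in siI1 against 192, 119.9 and 194 FPM in siC. All siI1 libraries lay below all siC libraries, and the log2 fold change was -0.75 (SE 0.21, adjusted p = 0.0405). In siI2 and siI3 NCL stood at 77.9, 95.9 and 109 FPM and 117, 135 and 111 FPM, with log2 fold changes of -0.81 (SE 0.21, adjusted p = 0.0617) and -0.45 (SE 0.21, adjusted p = 0.166). RSL1D1, a nucleolar protein linked to cellular senescence, had 48.0, 58.2 and 118 FPM in siI3 against 173, 114 and 152 FPM in siC. The groups overlapped through siI3 replicate 3, and the log2 fold change was -1.05 (SE 0.32, adjusted p = 0.0493), with -0.85 (adjusted p = 0.0686) after the GC and length correction. NCL lost its siI1 call without any library other than siC replicate 2 (adjusted p over the 6 fits 0.00527 to 0.2), and RSL1D1 its siI3 call without siI3 replicate 1 or 2 or siC replicate 1 or 3 (0.00709 to 0.2).

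NPM1 was the highest of the nucleolar group in siC, and it measured 83.5, 68.0 and 115 FPM in siI1, 98.8, 165 and 95.8 FPM in siI2, 108, 87.9 and 76.0 FPM in siI3 and 312, 141 and 244 FPM in siC. Its log2 fold change was -1.34 (SE 0.29, adjusted p = 0.011) in siI1, -0.92 (SE 0.29, adjusted p = 0.0973) in siI2 and -1.29 (SE 0.29, adjusted p = 0.0171) in siI3, so that mean levels were 38.2%, 51.6% and 39% of siC. All siI1 and siI3 libraries lay below all siC libraries, and siI2 replicate 2 lay above siC replicate 2. With GC content and length corrected for, NPM1 was still called in siI1, at -1.02 (adjusted p = 0.0205), and in siI3, at -0.97 (adjusted p = 0.0253). In siI1 the call was lost on leaving out siI1 replicate 1 or either of siC replicates 1 and 3 (adjusted p over the 6 fits 0.00173 to 0.0831), and in siI3 on leaving out siI3 replicate 2 or either of those siC libraries (0.00392 to 0.111).

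Reads of NPM1 cannot be assigned with certainty, because the table lists 45 pseudogene rows of the same gene. One of them, NPM1P27, had 18.8, 46.5 and 25.6 FPM in siI1, 33.9, 92.4 and 28.1 FPM in siI2, 32.4, 35.3 and 55.3 FPM in siI3 and 205, 76.8 and 169.7 FPM in siC. The copy thus followed NPM1, with its lowest siC value also in replicate 2. Its log2 fold change was -2.26 (SE 0.43, adjusted p = 0.00492) in siI1, -1.62 (SE 0.43, adjusted p = 0.0653) in siI2 and -1.78 (SE 0.43, adjusted p = 0.0226) in siI3. Its siI1 call held in all 6 fits that leave out 1 library, and its siI3 call was lost without siI3 replicate 1 or 2 or siC replicate 1 or 3. Summed, NPM1 and NPM1P27 reached 119 ± 19.4 FPM in siI1, 171 ± 74.8 FPM in siI2, 132 ± 8.41 FPM in siI3 and 383 ± 152 FPM in siC (SD, n = 3 each). Among pseudogenes of other members, NHP2P1 had a mean of 7.77 FPM over all libraries.

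**Figure D3:**
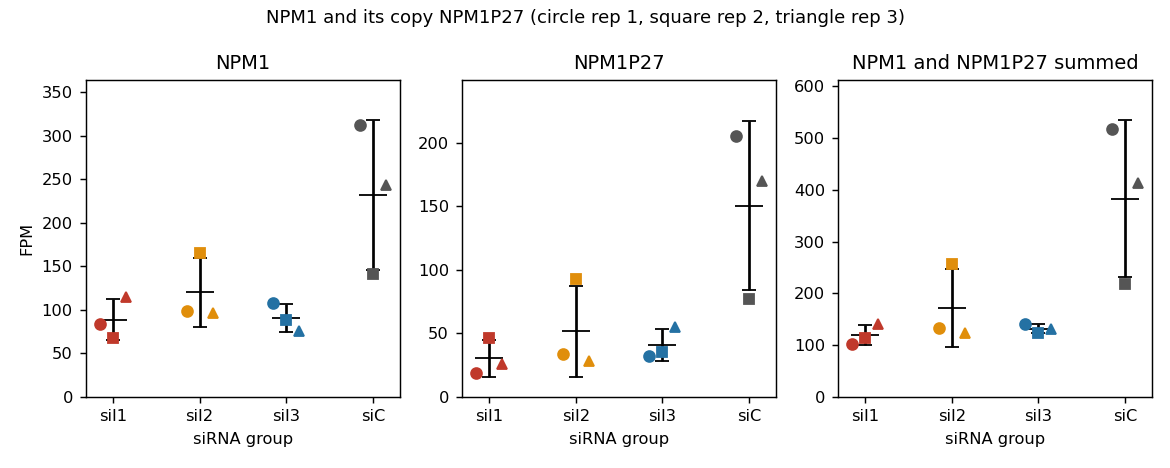
FPM of NPM1, of its pseudogene NPM1P27 and of their sum in each library; horizontal lines are group means and bars are SD (n = 3). The 3 siI1 and 3 siI3 libraries lie below the 3 siC libraries in each panel, while siI2 replicate 2 lies above siC replicate 2.

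Small subunit factors made up 19 of the tested members, of which 6 fell in siI1 (WDR75, FCF1, UTP15, WDR43, NOL10 and UTP20), FCF1 alone in siI2, and 5 in siI3 (UTP15, FCF1, UTP20, UTP14A and TSR1), with 0 higher in any. Of all genes, 4.42%, 0.936% and 8.29% were called lower in these knockdowns. Scaled to spike-in reads, 0, 6 and 7 of the 19 passed as higher, beside 2.77%, 31.4% and 48.9% of all genes. On the deposited scale the median log2 fold change of the 19 was -0.54 in siI1, -0.45 in siI2 and -0.58 in siI3. FCF1 is the nuclease that cuts the precursor rRNA within the small subunit processome. It measured 2.17, 1.76 and 3.59 FPM in siI1, 3.62, 2.76 and 2.91 FPM in siI2, 3.65, 3.30 and 3.72 FPM in siI3 and 14.6, 6.15 and 8.66 FPM in siC, from 11 to 126 reads per library. All 9 knockdown libraries lay below all siC libraries, and the log2 fold change was -1.58 (SE 0.31, adjusted p = 0.00686) in siI1, -1.33 (SE 0.31, adjusted p = 0.0471) in siI2 and -1.17 (SE 0.31, adjusted p = 0.0301) in siI3. Mean levels were 25.6%, 31.6% and 36.3% of siC. After the GC and length correction FCF1 was at -1.25 (adjusted p = 0.0172), -1.03 (adjusted p = 0.085) and -0.87 (adjusted p = 0.0696), so that the siI1 call alone remained. In siI1 the call was lost only without siC replicate 1 (adjusted p over the 6 fits 0.00253 to 0.0597), in siI2 also without siC replicate 3 or siI2 replicate 1 or 3 (0.0115 to 0.259), and in siI3 without siC replicate 1 or 3 or siI3 replicate 1 or 2 (0.0108 to 0.174). The 10 FCF1 pseudogene rows together held at most 23.1% of the FPM of FCF1 in a library.

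WDR75, WDR43, UTP15, NOL11 and HEATR1 belong to the UTP-A complex, which joins the precursor rRNA early and is needed for its transcription. WDR75 had 1.86, 5.60 and 4.44 FPM in siI1, 4.47, 8.82 and 3.88 FPM in siI2, 7.44, 8.64 and 4.61 FPM in siI3 and 24.8, 7.33 and 21.1 FPM in siC. Its log2 fold change in siI1 was the lowest of any member, -1.84 (SE 0.43, adjusted p = 0.0168), with -1.39 (SE 0.43, adjusted p = 0.0927) in siI2 and -1.13 (SE 0.43, adjusted p = 0.0945) in siI3. Its siC replicate 2 value lay within the range of the siI2 and siI3 libraries but above all siI1 libraries. UTP15 had 4.50, 4.16 and 6.50 FPM in siI1, 6.81, 4.78 and 3.88 FPM in siI2, 5.19, 3.68 and 4.96 FPM in siI3 and 14.8, 8.84 and 12.3 FPM in siC, with all knockdown libraries below all siC libraries and log2 fold changes of -1.10 (SE 0.29, adjusted p = 0.0289), -1.08 (SE 0.29, adjusted p = 0.0643) and -1.20 (SE 0.29, adjusted p = 0.0219) in siI1, siI2 and siI3. WDR43 had 32.1, 34.5 and 31.3 FPM in siI1, 32.6, 46.5 and 32.5 FPM in siI2, 56.7, 47.8 and 51.7 FPM in siI3 and 84.5, 48.2 and 75.1 FPM in siC. Its siI1 and siI2 libraries lay below all siC libraries, and its siI3 libraries around siC replicate 2, with log2 fold changes of -1.02 (SE 0.22, adjusted p = 0.0105), -0.86 (SE 0.22, adjusted p = 0.0574) and -0.37 (SE 0.22, adjusted p = 0.264). NOL11 (-1.06 in siI1, -1.23 in siI2 and -1.24 in siI3) and HEATR1 (-0.54 in siI1, -0.44 in siI2 and -0.64 in siI3) did not pass, with adjusted p-values of 0.112, 0.113 and 0.0635 and of 0.132, 0.249 and 0.0732. After the GC and length correction WDR75 and WDR43 stayed called in siI1, at -1.34 (adjusted p = 0.0321) and -0.62 (adjusted p = 0.0226), whereas UTP15 did not pass in siI1, at -0.64 (adjusted p = 0.172), or in siI3, at -0.85 (adjusted p = 0.06).

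The calls of UTP-A members also depended on single libraries. WDR75 and WDR43 lost theirs in siI1 without siI1 replicate 1 or 3 or siC replicate 1 or 3, where the adjusted p reached 0.116 and 0.0805. UTP15 lost its call in siI1 without any library other than siC replicate 2, with an adjusted p of up to 0.164, and in siI3 without siI3 replicate 1 or 2 or siC replicate 1 or 3, with up to 0.124.

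UTP20, a large scaffold protein of the processome, had 21.3, 30.2 and 17.3 FPM in siI1, 19.4, 33.4 and 19.4 FPM in siI2, 18.5, 27.1 and 23.6 FPM in siI3 and 57.5, 32.4 and 51.0 FPM in siC. All siI1 and siI3 libraries lay below all siC libraries, and siI2 replicate 2 lay above siC replicate 2. The log2 fold change was -0.9996 (SE 0.28, adjusted p = 0.0378) in siI1, -0.94 (SE 0.28, adjusted p = 0.0867) in siI2 and -0.97 (SE 0.28, adjusted p = 0.0382) in siI3. NOL10, whose yeast counterpart Enp2 is a processome protein, had 7.76, 11.4 and 8.55 FPM in siI1 against 24.5, 13.8 and 21.0 FPM in siC, without overlap, and a log2 fold change of -1.0010 (SE 0.28, adjusted p = 0.0365). In siI3, UTP14A, a processome factor that in yeast activates the helicase which dismantles it, had 28.9, 19.3 and 42.7 FPM against 50.1, 58.2 and 59.2 FPM in siC, with a log2 fold change of -0.93 (SE 0.27, adjusted p = 0.0395). TSR1, a factor of late small subunit maturation, had 46.3, 54.6 and 60.6 FPM in siI3 against 106, 85.7 and 94.2 FPM in siC and a log2 fold change of -0.82 (SE 0.22, adjusted p = 0.03). The siI3 libraries of UTP14A and TSR1 lay below all siC libraries. With the correction, UTP14A and TSR1 were still called, at -0.82 (adjusted p = 0.04) and -0.92 (adjusted p = 0.0192), while UTP20 and NOL10 were not, with corrected values in siI1 of -0.75 (adjusted p = 0.0574) and -0.69 (adjusted p = 0.0704). The calls of UTP20 and NOL10 in siI1 were lost without siI1 replicate 1 or 3 or siC replicate 1 or 3, with an adjusted p of up to 0.199 and 0.196, and those of UTP20, UTP14A and TSR1 in siI3 without siI3 replicate 1 or 2 or siC replicate 1 or 3, with up to 0.181, 0.19 and 0.144.

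The remaining small subunit members did not pass in any knockdown on the deposited scale. UTP6, a UTP-B protein, was among those with the lowest fold changes, -1.53 in siI1, -1.40 in siI2 and -1.36 in siI3, with a wide standard error of 0.48 and adjusted p-values of 0.0573, 0.116 and 0.0756. UTP18, another UTP-B protein, was at -0.29 in siI1, -0.17 in siI2 and 0.11 in siI3, and UTP3 at -0.49 in siI1, -0.45 in siI2 and -0.48 in siI3. RRP12, a factor of subunit export and the highest of the group in mean FPM over all libraries, had 170.4 ± 16.8 FPM in siI1, 172 ± 21.1 FPM in siI2, 196 ± 52.1 FPM in siI3 and 156 ± 37.6 FPM in siC (SD, n = 3 each), with log2 fold changes of 0.15 in siI1, 0.16 in siI2 and 0.32 in siI3 and adjusted p-values of 0.69, 0.699 and 0.351. NOL6 had the highest log2 fold change of any member in siI3, 0.34 (SE 0.22, adjusted p = 0.307). The rRNA acetyltransferase NAT10, the processome scaffold NOP14, the U3 snoRNP protein RRP9 and BYSL, a late small subunit factor, lay between -0.34 and 0.26. The positive values of RRP12 in all 3 knockdowns and of NOL6 in siI3 became negative after the GC and length correction, at -0.27, -0.23 and -0.11 for RRP12 and -0.07 for NOL6.

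**Figure D4:**
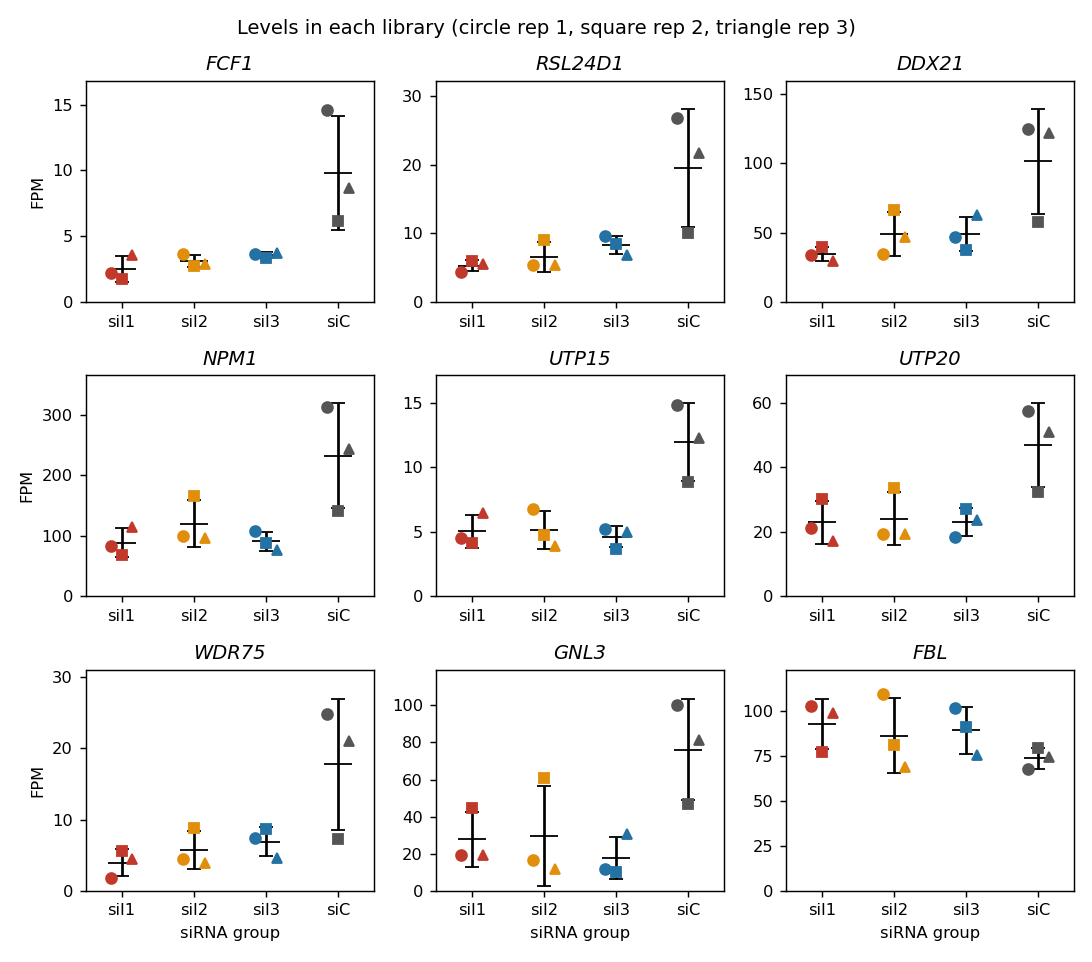
FPM of 9 members in each library; horizontal lines are group means and bars are SD (n = 3 each). FCF1, RSL24D1 and UTP15 lie below all siC libraries in all 9 knockdown libraries, DDX21, NPM1, UTP20, WDR75 and GNL3 reach above siC replicate 2 in siI2 replicate 2, and FBL overlaps siC in every group.

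Large subunit factors made up 12 of the tested members. RSL24D1 and WDR12 fell in siI1, RSL24D1 alone in siI2, and GNL3 and RSL24D1 in siI3, with 0 higher. Of all genes, 4.42%, 0.936% and 8.29% were called lower in these knockdowns. Scaled to spike-in reads, 0, 4 and 9 of the 12 passed as higher, beside 2.77%, 31.4% and 48.9% of all genes. RSL24D1 holds the place of a ribosomal protein on the immature large subunit until it reaches the cytoplasm. It measured 4.35, 5.92 and 5.47 FPM in siI1, 5.32, 9.004 and 5.33 FPM in siI2, 9.54, 8.51 and 6.91 FPM in siI3 and 26.8, 10.0 and 21.7 FPM in siC. All 9 knockdown libraries lay below all siC libraries, with siC replicate 2 next to them, and mean levels were 26.9%, 33.6% and 42.7% of siC. The log2 fold change was -1.62 (SE 0.32, adjusted p = 0.00689) in siI1, -1.37 (SE 0.32, adjusted p = 0.047) in siI2 and -1.04 (SE 0.32, adjusted p = 0.0487) in siI3. RSL24D1 has the lowest GC content of all members, 35.8%, and after the GC and length correction it stayed called in siI1, at -1.04 (adjusted p = 0.0176), but not in siI2, at -0.93 (adjusted p = 0.0685), or siI3, at -0.68 (adjusted p = 0.0891). Its siI1 call was lost only without siC replicate 1 (adjusted p over the 6 fits 0.000794 to 0.0607). The siI2 call was lost without siC replicate 1 or 3 or siI2 replicate 1 or 3 (0.00619 to 0.251), and the siI3 call without any library other than siC replicate 2 (0.00672 to 0.238).

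GNL3 (nucleostemin), a GTP-binding nucleolar protein abundant in stem and cancer cells, had 19.1, 44.8 and 19.3 FPM in siI1, 16.6, 60.6 and 11.6 FPM in siI2, 11.9, 10.3 and 30.7 FPM in siI3 and 100.3, 46.7 and 81.3 FPM in siC. Its siI3 and siI1 libraries lay below all siC libraries, and siI2 replicate 2 lay above siC replicate 2. The log2 fold change in siI3 was the lowest of any member, -2.14 (SE 0.51, adjusted p = 0.0223), and it was -1.47 (SE 0.51, adjusted p = 0.0816) in siI1 and -1.62 (SE 0.51, adjusted p = 0.0996) in siI2, where the SE was as wide. GNL3 stayed called in siI3 after the GC and length correction, at -1.80 (adjusted p = 0.0273), and lost the call without siI3 replicate 1 or 2 or siC replicate 1 or 3 (adjusted p over the 6 fits 0.00652 to 0.122). WDR12 forms the PeBoW complex with PES1 and BOP1. It had 14.0, 23.0 and 14.9 FPM in siI1 against 38.8, 26.3 and 44.3 FPM in siC, without overlap, and a log2 fold change of -1.04 (SE 0.30, adjusted p = 0.0448). After the correction WDR12 was at -0.68 (adjusted p = 0.123), and its call was lost without siI1 replicate 1 or 3 or siC replicate 1 or 3 (0.0166 to 0.198). Its partner PES1 had 229 ± 26.6 FPM in siI1, 212 ± 25.5 FPM in siI2, 278 ± 53.4 FPM in siI3 and 222 ± 49.0 FPM in siC (SD, n = 3 each), with adjusted p-values of 0.866, 0.917 and 0.3.

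The GTPase GNL2 had log2 fold changes of -0.64 in siI1, -0.79 in siI2 and -0.19 in siI3, and NOP16 of -0.93 in siI1, -0.39 in siI2 and -0.14 in siI3, with adjusted p-values of 0.058, 0.0563 and 0.532 and of 0.0556, 0.435 and 0.772. RRP1B had the highest log2 fold change of any member in siI2, 0.30 (SE 0.20, adjusted p = 0.386), with 98.7 ± 11.3 FPM against 80.1 ± 11.3 FPM in siC (SD, n = 3 each). The other large subunit members, NIP7, EBNA1BP2, MRTO4, NOP2 and RRP1, lay between -0.62 and 0.28 and did not pass on the deposited scale. MRTO4 takes the place of a stalk protein on the immature subunit, and NOP2 is an rRNA methyltransferase.

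Of the 3 box C/D core proteins among the members, 0 passed in siI1, siI2 or siI3 (limma, edgeR and DESeq2; 2, 0 and 1 by limma at an unadjusted p under 0.05). FBL (fibrillarin), the methyltransferase, had 103, 77.1 and 98.8 FPM in siI1, 109, 80.8 and 68.6 FPM in siI2, 102, 90.8 and 75.5 FPM in siI3 and 67.6, 79.3 and 74.4 FPM in siC. Its groups overlapped, and its log2 fold changes were 0.32 in siI1, 0.20 in siI2 and 0.26 in siI3 (adjusted p = 0.313, 0.579 and 0.389). With spike-in scaling FBL passed as higher in siI2 and siI3, beside 31.4% and 48.9% of all genes called higher. NOP56, the highest of the 3 in FPM, had 137, 136 and 129 FPM in siI1, 205, 209 and 114 FPM in siI2, 138, 113 and 148 FPM in siI3 and 220.0, 199 and 180.0 FPM in siC. The siI1 and siI3 libraries lay below all siC libraries, but log2 fold changes of -0.57 in siI1, -0.23 in siI2 and -0.59 in siI3 did not pass (adjusted p = 0.109, 0.553 and 0.0898). After the GC and length correction NOP56 passed in siI1, at -0.67 (limma, adjusted p = 0.0464, with 4.11% of all genes called lower). With the added centring it did not (adjusted p = 0.0523). NOP58, its partner in the particle, was at -0.76 in siI1, -0.50 in siI2 and -0.52 in siI3.

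In the box H/ACA particle, DKC1 (dyskerin), the pseudouridine synthase, was the only tested protein to pass by limma on the deposited scale, in siI3 (8.29% of all genes called lower). NHP2 passed as higher in siI2 and siI3 when scaled to spike-in reads, where 31.4% and 48.9% of all genes were called higher. DKC1 had 27.2, 38.7 and 25.0 FPM in siI1, 36.2, 45.6 and 20.6 FPM in siI2, 26.5, 21.0 and 29.4 FPM in siI3 and 64.1, 46.8 and 51.0 FPM in siC. All libraries of each knockdown lay below all siC libraries. The log2 fold change was -0.83 (SE 0.27, adjusted p = 0.0644) in siI1, -0.70 (SE 0.27, adjusted p = 0.144) in siI2 and -1.05 (SE 0.27, adjusted p = 0.0264) in siI3, and -0.95 (adjusted p = 0.0228) in siI3 after the GC and length correction. In siI1 DKC1 was also called lower after that correction (4.11% of all genes called lower), but not with the added centring. The siI3 call before correction was lost without siI3 replicate 1 or 2 or siC replicate 1 or 3 (adjusted p over the 6 fits 0.0167 to 0.137). NHP2 had the highest log2 fold change of any member in siI1, 0.47 (SE 0.27, adjusted p = 0.256), with 104, 68.1 and 98.5 FPM in siI1 against 70.6, 76.1 and 48.1 FPM in siC, and NOP10 was at -0.31 in siI1, -0.23 in siI2 and -0.64 in siI3 (adjusted p = 0.464, 0.638 and 0.125). GAR1, the remaining core protein, had 0, 0.640 and 0.342 FPM in siI1, 0.426, 0.551 and 0 FPM in siI2, 0.140, 0.381 and 0.177 FPM in siI3 and 1.28, 0.539 and 2.30 FPM in siC, at most 17 reads. Of 18 small nucleolar RNAs encoded within introns of 6 members, 10 were listed at 0 in all libraries and none passed the filter on low reads, the highest value being 1.06 FPM (9 reads). Differences in them could not be assessed from so few reads, and why the reads were so few was not tested.

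For RNA polymerase I, 0 of 2 subunits passed in siI1, siI2 or siI3 (limma, edgeR and DESeq2; 1, 0 and 0 by limma at an unadjusted p under 0.05). POLR1A, the largest subunit, had 142, 156 and 147 FPM in siI1, 136, 119 and 124 FPM in siI2, 159, 132 and 119.6 FPM in siI3 and 112, 141 and 116 FPM in siC. Its siI1 libraries lay just above all siC libraries, with a log2 fold change of 0.27 (SE 0.17, adjusted p = 0.313), and it was at 0.04 in siI2 and 0.15 in siI3. With spike-in scaling POLR1A passed as higher in siI2 and siI3, and POLR1B in siI2, beside 31.4% of all genes called higher in siI2 and 48.9% in siI3. POLR1B, the other catalytic subunit, was at -0.49 in siI1, -0.07 in siI2 and -0.42 in siI3 (adjusted p = 0.133, 0.874 and 0.171). MYC, the activator named above, had 361, 302 and 312 FPM in siI1, 349, 329 and 339.7 FPM in siI2, 403, 439 and 268 FPM in siI3 and 251, 372 and 257 FPM in siC. Its groups overlapped, and its log2 fold changes were 0.17 in siI1, 0.23 in siI2 and 0.33 in siI3 (adjusted p = 0.644, 0.542 and 0.319).

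The change of a member went with the GC content of its transcript. Across the 43 members, which are not independent replicates and share the same libraries, Spearman's rho between GC content and log2 fold change was 0.84 in siI1, 0.86 in siI2 and 0.79 in siI3, beside 0.60, 0.60 and 0.55 over 13361 genes. The 19 members with under 45% GC had a median log2 fold change of -1.04 in siI1, -0.94 in siI2 and -0.98 in siI3, and held 10, 2 and 8 of the called members. The 17 members with 50% GC or more had medians of 0.02, 0.06 and 0.15, and held 0, 0 and 1. The 16 members called in any knockdown had a median GC content of 42.0% (35.8% to 51.1%), and the 27 called in none of 51.3% (41.0% to 60.9%). The GC dependence differed between libraries: per 10 points of GC, log2 levels relative to the gene means changed by -0.46 in siC replicate 1, by -0.43 in siC replicate 3, by 0.03 in siC replicate 2 and by -0.09 to 0.21 in the knockdown libraries.

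The correction subtracted from each library its own loess trend over GC content and transcript length. After it the median of members under 45% GC was -0.68 in siI1, -0.67 in siI2 and -0.68 in siI3, that of members with 50% GC or more was -0.28, -0.13 and -0.11, and the median over all genes was -0.09, -0.14 and -0.11. Spearman's rho among the members was then 0.50, 0.61 and 0.47. In siI1 the correction left 13 members called lower (4.11% of all genes), of which 7 were called before it as well (DDX21, FCF1, NCL, NPM1, RSL24D1, WDR43 and WDR75). The other 6 were DKC1, UTP14A, NOP16, NOP56, RRP1 and RRP9, at -0.60 to -1.09. In siI2 it left 0 (limma; 19 at an unadjusted p under 0.05, with 1% of all genes called lower), where edgeR and DESeq2 without the correction called 0 and 8. In siI3 it left 5 (7.27% of all genes), all called before it: DKC1, GNL3, NPM1, TSR1 and UTP14A. With the corrected libraries also centred on their median gene, 9, 0 and 4 members were called lower (3.29%, 0.659% and 4.54% of all genes), where NCL, DKC1, UTP14A and NOP56 no longer passed in siI1 nor UTP14A in siI3. The share of all called genes that were higher was 38.5%, 29.1% and 19.1% after the correction and 55.6%, 58.5% and 38.6% after the added centring. Over the fits that leave out 1 library, the corrected counts ranged from 1 to 9 in siI1, from 0 to 10 in siI2 and from 0 to 9 in siI3, all lower except 1 of the 9 in siI3 without siI3 replicate 3. They were 1, 0 and 0 without siC replicate 1 and 3, 0 and 0 without siC replicate 3. The part of GC content in the lower levels of the AT-rich members was not tested beyond these fits.

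**Figure D5:**
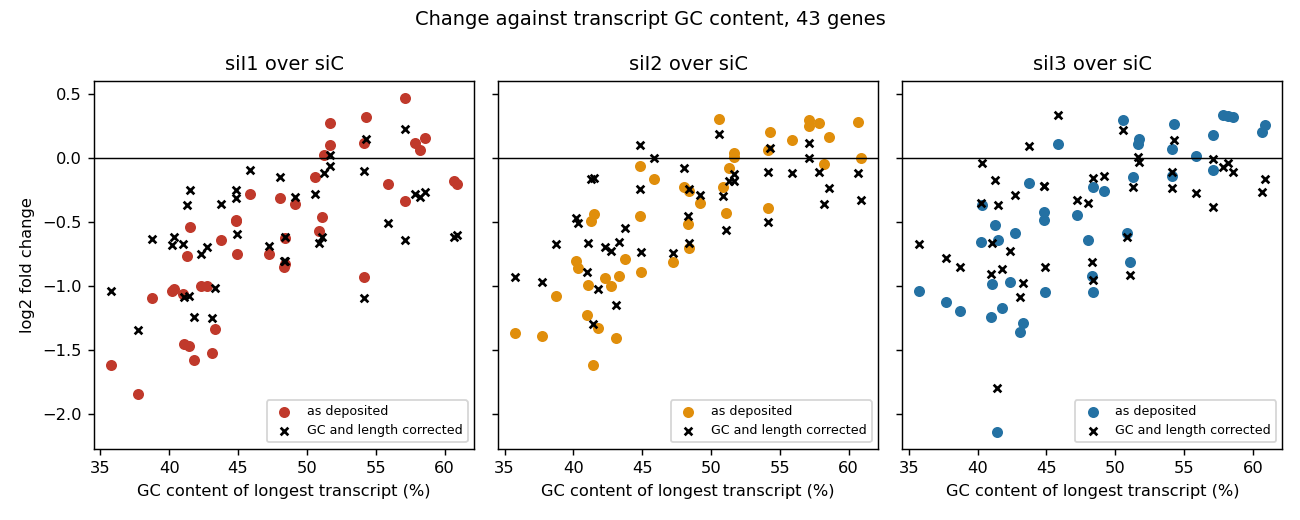
log2 fold change over siC of each tested member (vertical axis) against the GC content of its longest annotated transcript in percent (horizontal axis), for siI1, siI2 and siI3; circles are values as deposited and crosses those after the GC and length correction. Circles rise from left to right in each panel (Spearman's rho 0.84, 0.86 and 0.79), and crosses rise less (0.50, 0.61 and 0.47).

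Set directly against each other, no member passed between the knockdowns by limma on the deposited scale. In siI1 against siI2, 0 of 43 members passed (limma, edgeR and DESeq2; 3 by limma at an unadjusted p under 0.05; 2.4%, 2.19% and 4.02% of all genes called by these tools; 0 members and 1.58% of all genes called lower after the GC and length correction), with a median log2 fold change of -0.12. In siI1 against siI3, 0 passed by limma or edgeR and 2 by DESeq2 (5 by limma at an unadjusted p under 0.05; 7.05%, 7.28% and 10.1% of all genes called by limma, edgeR and DESeq2), with a median of -0.17. In siI2 against siI3, 0 passed (limma, edgeR and DESeq2; 2 by limma at an unadjusted p under 0.05; 2%, 2% and 4.04% of all genes called by these tools), with a median of -0.01. Spearman's rho between transcript GC content and these differences was 0.06, 0.12 and 0.06 across the members. By limma on the deposited scale, the members called in 1 of siI1 and siI3 alone are therefore not shown to differ between these knockdowns.

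WDR43 came closest, with 32.1, 34.5 and 31.3 FPM in siI1 against 56.7, 47.8 and 51.7 FPM in siI3. These libraries did not overlap, and the log2 fold change was -0.65 (SE 0.22, adjusted p = 0.0872), -0.58 (adjusted p = 0.0206) after the GC and length correction (4.28% of all genes called lower) and 0.0444 as the adjusted p of DESeq2. NOP16, the other member called by DESeq2, was at -0.80 (SE 0.29, adjusted p = 0.115) in siI1 against siI3. GNL2, with 19.2, 20.9 and 18.4 FPM in siI2 against 28.1, 29.3 and 32.8 FPM in siI3, was at -0.60 (SE 0.20, adjusted p = 0.163) and passed after the correction, at -0.64 (adjusted p = 0.0285) (1.55% of all genes called lower). With the corrected libraries also centred on their median gene, RRP1 passed in siI1 against siI2 (2.31% of all genes called lower), GNL2, NOP16, RRP1B, RRP9 and WDR43 in siI1 against siI3 (5.26%), and GNL2 in siI2 against siI3 (1.68%), each lower in the knockdown named before. Scaled to spike-in reads, NOP16 and WDR43 were lower in siI1 against siI3 (limma; 3.7% of all genes called lower), and 0 members passed in siI1 against siI2 or in siI2 against siI3 (11 and 0 at an unadjusted p under 0.05). Deviations of same-numbered siI1 and siI2 libraries correlated at 0.19, 0.45 and 0.18, though a pairing by number was not tested. With the replicate block 0 members passed between them (limma; 4 at an unadjusted p under 0.05), and 0 with only these 6 libraries (7), but after the correction with the block RRP1 was lower (-0.50, adjusted p = 0.0487; 1.38% of all genes called lower), and with only these 6 libraries RRP1 and RRP1B (-0.47) were (2.54%). Leaving out 1 library at a time gave 0 members in siI1 against siI2 and in siI2 against siI3, and 0 to 1 in siI1 against siI3, where the 1 appeared without siI3 replicate 3.

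A further list of 113 ribosome biogenesis genes, of which 107 were tested, was counted in the same way. In siI1 12 of them fell and 0 rose (4.42% of all genes called lower). In siI2 1 fell and 0 rose (0.936% lower). In siI3 12 fell and 1 rose (8.29% lower, and 317 of 13782 genes higher). The list had median log2 fold changes of -0.42, -0.26 and -0.25. Among them, the kinase RIOK2 had 1.16 ± 0.792 FPM in siI1 and 6.90 ± 4.41 FPM in siC (log2 fold change -1.74, adjusted p = 0.025). NMD3, the export adaptor of the large subunit, had 4.20 ± 1.22 FPM in siI1 and 15.6 ± 7.70 FPM in siC (log2 fold change -1.57, adjusted p = 0.0257). It also fell in siI3 (log2 fold change -1.34, adjusted p = 0.043). In siI3 the processome protein WDR3 had 7.10 ± 3.52 FPM in siI3 and 39.7 ± 17.9 FPM in siC (log2 fold change -2.30, adjusted p = 0.032), and SKIV2L2, the helicase of the nuclear exosome, 6.92 ± 0.0569 FPM in siI3 and 22.8 ± 11.7 FPM in siC (log2 fold change -1.42, adjusted p = 0.0243). SKIV2L2 also fell in siI1 (log2 fold change -1.46, adjusted p = 0.0213). AATF was the single gene to pass in siI2, with 75.8 ± 13.3 FPM in siI2 and 132 ± 16.1 FPM in siC (log2 fold change -0.80, adjusted p = 0.0464), and NOL12 the single gene to rise in siI3, with 28.2 ± 4.68 FPM in siI3 and 16.4 ± 2.06 FPM in siC (log2 fold change 0.74, adjusted p = 0.0439). The adjusted p of AATF was 0.0622 by edgeR and 0.00543 by DESeq2. Its call was lost without siI2 replicate 1 or 3 or siC replicate 1 or 3. That of NOL12 was lost without siI3 replicate 1 or 2 or siC replicate 1 or 3. Scaled to spike-in reads, 0, 31 and 50 genes of this list passed as higher and 0, 0 and 1 as lower. Of all genes, 2.77%, 31.4% and 48.9% were then called higher and 0.152%, 0.0943% and 0.747% lower. The list's medians on that scale were 0.13, 0.71 and 0.89, beside 0.43, 0.80 and 0.95 over all genes. As for the members, no gene of this list was called without siC replicate 1 (0.791%, 0.138% and 0.53% of all genes called lower). Without siC replicate 3 the counts were 2, 0 and 0 (0.871%, 0.0943% and 0.653% of all genes). Without siC replicate 2 they were 30, 21 and 31, of which 29, 21 and 27 were lower (11.3%, 8.84% and 14.4% of all genes). After the GC and length correction 11, 0 and 7 of 105 passed, 1 of the last higher (4.11%, 1% and 7.27% of all genes called lower). That 1 was not NOL12, which was then at 0.21 in siI3 (limma, adjusted p = 0.495). RIOK2 in siI1, WDR3 in siI3 and SKIV2L2 in both stayed called, while NMD3 did not pass in siI1 or siI3 (adjusted p = 0.0678 and 0.0829). AATF had no GC value, so it was not among the 105 and its call was not tested with the correction.

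In the authors' deposited table, 2 members lay under an FDR of 0.05 in siI1 over siC, and 0 in siI2 or siI3, beside 470, 114 and 279 features in all. The authors' deposited table gives FCF1 a log2 fold change of -1.97 (FDR 0.00415) and RSL24D1 -1.89 (FDR 0.018) in siI1. These are the members that passed in all 3 knockdowns here.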

How the data were processed

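RNA from 12 ES-2 libraries, 3 per siRNA group, was depleted of ribosomal RNA and sequenced, per the labels' protocols. The submitters' processing notes name cutadapt 1.6, TopHat2 2.0.13, featureCounts 1.4.6, edgeR 3.12 and the hg19 build. Not given in the sources used here are the strand setting, the read filters and the annotation release. The deposited signal values are FPM per gene and library, a fragment unit whose sum per library is 800026 to 1219060, so that it holds a scaling factor beyond depth, not stated in the sources used here, and the authors' deposited table also holds their log2 fold changes and FDR-adjusted p-values. Every FPM value was a whole multiple of that of 1 read in its library (100% within a tolerance of 0.01 reads), which gave depths of 3299360 to 11304060 reads, where 3 reads equal 0.324 to 0.727 FPM. Precision for low genes is limited by these depths.

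The main test was limma 3.58.1 in R 4.3.3 on log2(FPM + 1), a scale that understates changes of low genes, with all 12 libraries, 1 coefficient per group and a mean-variance trend. It covered 13782 genes that passed a minimum of 10 reads by edgeR's filter, with Benjamini-Hochberg adjustment per comparison and a threshold of 0.05. The 92 spike-in rows were left out of the test; an alternative added after seeing the data divided the recovered reads of each library by its spike-in reads. Alternatives used other pseudocounts, filters and scalings, edgeR 4.0.16 and DESeq2 1.42.0 on the recovered reads, a replicate block, left-out libraries, and a loess correction (span 0.5) for GC content and length, which were known for 96.95% of tested genes. The added centring on the median gene, and the correction with libraries left out, were chosen after seeing the data. Procedures were tested on simulated data.

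Members were matched by name. Members and lists were chosen with earlier results of these data known. Described in full were members past the threshold, the highest member of each role, and the highest fold change in each comparison with siC; those brought in by another setting or called close were named after their values were seen. Deviations of same-numbered libraries correlated at 0.19, 0.45 and 0.18 in siI1 and siI2. In the other comparisons r was -0.45 to 0.27, with at least 1 pair under 0.1, and siI3 and siC had 0.01, 0.19 and 0.27. These values were not set against those of differently numbered libraries. A pairing by number was therefore not tested, and the labels do not say if there is one. The block restricted to the 6 libraries of siI1 and siI2 was added after seeing the data. Replicate libraries differed beyond sampling noise (chi-square divided by its degrees of freedom, 7.82 to 84.3).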

Additional observations from a re-analysis of the deposited data

How the results depend on the processing

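The number of members called depended on the control libraries and on the scaling. Scaled to spike-in reads, 0, 14 and 19 members were called in siI1, siI2 and siI3, all higher than siC (2.77%, 31.4% and 48.9% of all genes called higher). In siI1 against siI3 2 were called, both lower (3.7% of all genes called lower). With the other settings the called members were all lower, except after the correction without siI3 replicate 3, where 1 of 9 was higher in siI3 against siC, and without siI2 replicate 3, where 2 of 3 were higher in siI2 against siI3. The calls over all genes moved with the setting as well. In siI1 against siC the 11 calls became 6 with no filter, 19 with only the 6 libraries compared and 7 with the replicate block. Over all 13782 genes, 609 were called lower in the main fit and 319 with the block. All-gene counts for no filter, another pseudocount or only the 6 libraries compared are not given here. In siI2 the 2 calls became 1 with a pseudocount of 0.25 and 8 with DESeq2. They became 0 with no filter, with RLE, upper-quartile or TMM factors, with edgeR, with only the 6 libraries compared and with the replicate block. The GC and length correction alone, with the block or with centring also gave 0. Over all 13782 genes, 129 were called lower in the main fit, 366 with DESeq2, 70 with edgeR and 53 with the block. RLE factors gave 79, and upper-quartile or TMM factors 77. After the correction 134 of 13361 genes were called lower, and 88 with centring. In siI3 the 11 calls became 3 with no filter, 7 with RLE factors and 6 with upper-quartile or TMM factors. They became 5 with the replicate block, 5 with the correction, and 4 with the correction and replicate block or centring. Over all 13782 genes, 1143 were called lower in the main fit, 888 with RLE, 785 with upper-quartile and 856 with TMM factors, and 587 with the block. After the correction 971 of 13361 genes were called lower, and 607 with centring. Leaving out 1 library gave 0 to 18 members in siI1, 0 to 17 in siI2 and 0 to 18 in siI3, and 1 to 9, 0 to 10 and 0 to 9 after the correction. Between siI1 and siI2, 1 member passed after the correction with the replicate block (1.38% of all genes called lower). With the correction, the block and only the 6 libraries compared 2 passed (2.54%), and 1 with centring (2.31%). Between siI1 and siI3, 2 passed with DESeq2 (10.1% of all genes called either way) and 1 with only the 6 libraries compared. With the correction 1 passed (4.28% of all genes called lower), 1 with the correction and block, and 5 with centring (5.26%). Between siI2 and siI3, 1 passed with the correction (1.55% of all genes called lower), 1 with the correction and block and 1 with centring (1.68%). Leaving out 1 library gave 0, 0 to 1 and 0 members in these comparisons, and 0 to 3, 0 to 2 and 0 to 3 after the correction. The causes were not tested.

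Fold changes changed sign in places. Scaled to spike-in reads, members called in siI3 were at 0.136 (RSL1D1), 0.118 (DKC1), 0.0614 (RSL24D1), 0.195 (DDX21), 0.189 (UTP20) and 0.239 (UTP14A), and among members that did not pass NOP56 was at 0.0145, 0.807 and 0.603 and NOP10 at 0.267, 0.806 and 0.546 in siI1, siI2 and siI3, with NPM1 at 0.116 and PES1 at 0.991 in siI2. TSR1, also called in siI3 on the deposited scale, was above 0 there as well. The further sign changes listed here were of members that did not pass. With the correction, with or without the replicate block, RRP12 was at -0.268 in siI1, -0.234 in siI2 and -0.108 in siI3, PES1 at -0.301 in siI1 and -0.0396 in siI3, POLR1A at -0.181 in siI2 and -0.0305 in siI3, and NOL6 at -0.0675 in siI3. With centring, RRP12 was at -0.175 in siI1 and -0.0919 in siI2, PES1 at -0.209 in siI1, POLR1A at -0.0392 in siI2 and NOP10 at 0.0597 in siI2. Without siC replicates 1 and 3, RRP12 was at -0.216, -0.208 and -0.0507 in siI1, siI2 and siI3, PES1 at -0.277 in siI1 and -0.0150 in siI3, POLR1A at -0.161 in siI2 and -0.0526 in siI3, and NOL6 at -0.0712 in siI3. PES1 in siI2 was at 0.0378 with RLE factors, 0.0491 with upper-quartile factors, 0.0531 with TMM factors, 0.0288 with edgeR and 0.0225 with DESeq2. Leaving out 1 library, PES1 ranged from -0.0614 to 0.235 in siI1 and from -0.173 to 0.124 in siI2, NOP56 from -0.378 to 0.0554 in siI2, and POLR1A from -0.0231 to 0.141 in siI2. The cause was not tested. Low members such as FCF1 rest on few reads. The standard errors come from the spread among libraries, and changes larger than a standard error also did not pass, as for UTP6 in each knockdown. Small differences could thus be missed.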
